A study of Mus musculus with 29 samples.

Results

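The DNA replication and mitosis genes studied here are 42 named genes of 20968 mouse gene symbols carried by the arrays. They comprise 24 replication members, which license, open, copy and time the replication of DNA, and 18 mitotic members, which drive and guard the division of the chromosomes. The members were taken by name, and each was read from the brightest probe whose deposited accession maps to its symbol. Of the 42, 40 passed the filter for signal above background and were tested, 23 replication members and 17 mitotic members. Cyclin E2 (Ccne2) was well above background on 0 of 29 arrays and the mitotic kinase Aurkb on 1, and neither is described further.

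The study followed mouse stem cells into endoderm cultures with single-colour Agilent expression arrays of total RNA from cultured cells lysed on the plate. Diff cultures (n = 3) were the double reporter line HRHnG differentiated over 7 to 8 days by Activin, CHIRON and LIF and labelled as primitive endoderm, and ESC (n = 3) were the same line undifferentiated in 2i/LIF. Passaged Diff cultures are called nEnd, with Mid cultures at passage 7 to 10 and Late cultures at passage 14 to 15 (n = 3 each), every replicate from its own set of differentiations. XEN cells (n = 3) are extraembryonic endoderm stem cells of their own line in their own medium. ADE cultures (n = 4) were EpiSC differentiated for 4 days, and EpiSC (n = 3) are stable epiblast stem cell cultures derived from ESC, both of a line spelled HRHNG. NACL cultures (n = 4) and 2iL cultures (n = 3) were embryonic stem cells adapted over 3 or more passages, to N2B27 with Activin, Chiron and LIF for NACL and to 2i/LIF for 2iL. Their lines were E14, E14-NanogGFP and HVMC, with HVMC used for 2 NACL replicates. All lines are labelled male. Apart from the nEnd cultures, the labels do not say whether replicates were separate cultures, so p-values measure the spread between these samples only.

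Before S phase, the factors Cdc6 and Cdt1 load the ring of Mcm2 to Mcm7 proteins onto replication origins, and kinases then recruit further factors that turn the ring into an active helicase. In the next stage of the cycle, Cdk1 with its cyclins drives entry into mitosis, and the spindle checkpoint holds chromosome separation until every kinetochore is attached. Many replication genes are transcribed through E2F sites around the G1 to S transition, whereas many mitotic genes carry a cell cycle homology region, the CHR element, that restricts them to G2 and mitosis. Mouse embryonic stem cells are known for fast division with short gap phases.

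Promoter windows from RefSeq (mouse build GRCm38.p6), running from 250 bases before to 50 bases after the start of a gene, were available for 18 of the 24 replication members, with 19 windows, and for 15 of the 18 mitotic members, with 15 windows. They are described because both classes differ in these letters. The E2F letters searched were TTTCCCGC, TTTGGCGC, TTTCGCGC and TTTGCCGC, and the CHR letters were TTTGAA and TTTAAA, on both strands. E2F letters occurred in 9 of 19 replication windows (47.4%), in 1 of 15 mitotic windows (6.67%) and in 2.26% of 32851 windows of all genes. CHR letters occurred in 4 of 19 replication windows (21.1%), 13 of 15 mitotic windows (86.7%) and 27.6% of all windows. The shorter letters CCAAT occurred in 68.4% of replication windows, 86.7% of mitotic windows and 37.4% of all windows. A match is a description of the letters and not a shown binding site.

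The windows of 4 helicase genes and 3 mitotic genes that carry the results below are printed 5′ to 3′ on the strand of the gene, with E2F and CHR letters in capitals. Mcm3 (chr1:20820263-20820562, minus strand) and Mcm6 (chr1:128359656-128359955, minus strand) held 2 and 3 E2F matches, Mcm5 (chr8:75109259-75109558, plus strand) 2 overlapping E2F matches and 1 CHR match, and Mcm10 (chr2:5012742-5013041, minus strand) held neither. Ccnb2 (chr9:70421505-70421804, minus strand) and Plk1 (chr7:122159185-122159484, plus strand) held 2 and 3 CHR matches. Cdk1 (chr10:69352863-69353162, minus strand) was the 1 mitotic member with E2F letters, beside 2 CHR matches; in Mcm6 a pair of E2F matches also overlaps on opposite strands.
Mcm3: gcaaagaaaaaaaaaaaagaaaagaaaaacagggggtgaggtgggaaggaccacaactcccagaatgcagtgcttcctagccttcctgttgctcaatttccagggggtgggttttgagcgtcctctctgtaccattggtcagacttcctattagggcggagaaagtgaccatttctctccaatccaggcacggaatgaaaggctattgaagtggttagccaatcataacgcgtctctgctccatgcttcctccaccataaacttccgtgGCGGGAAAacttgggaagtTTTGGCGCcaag
Mcm6: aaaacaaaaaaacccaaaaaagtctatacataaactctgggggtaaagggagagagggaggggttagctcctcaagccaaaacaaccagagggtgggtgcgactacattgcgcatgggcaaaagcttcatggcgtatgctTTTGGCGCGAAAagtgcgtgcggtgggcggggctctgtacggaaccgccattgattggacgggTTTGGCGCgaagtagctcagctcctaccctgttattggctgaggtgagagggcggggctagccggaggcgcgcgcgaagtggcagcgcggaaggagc
Mcm5: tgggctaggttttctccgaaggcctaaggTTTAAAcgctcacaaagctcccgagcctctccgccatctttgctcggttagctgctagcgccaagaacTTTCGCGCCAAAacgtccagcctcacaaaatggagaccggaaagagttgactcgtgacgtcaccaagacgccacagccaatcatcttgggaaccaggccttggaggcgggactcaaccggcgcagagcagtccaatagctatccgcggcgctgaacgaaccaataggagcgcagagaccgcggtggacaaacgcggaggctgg
Mcm10: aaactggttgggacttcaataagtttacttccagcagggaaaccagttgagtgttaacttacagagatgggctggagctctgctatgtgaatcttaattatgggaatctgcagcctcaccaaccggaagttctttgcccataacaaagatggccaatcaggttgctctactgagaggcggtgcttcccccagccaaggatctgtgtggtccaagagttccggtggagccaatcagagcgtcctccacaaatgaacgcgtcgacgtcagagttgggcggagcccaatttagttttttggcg
Ccnb2: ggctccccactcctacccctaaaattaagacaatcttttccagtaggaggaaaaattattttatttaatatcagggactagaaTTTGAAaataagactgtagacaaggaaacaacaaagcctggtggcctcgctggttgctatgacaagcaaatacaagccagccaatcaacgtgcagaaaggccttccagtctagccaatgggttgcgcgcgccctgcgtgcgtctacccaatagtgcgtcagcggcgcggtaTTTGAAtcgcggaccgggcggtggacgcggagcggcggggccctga
Plk1: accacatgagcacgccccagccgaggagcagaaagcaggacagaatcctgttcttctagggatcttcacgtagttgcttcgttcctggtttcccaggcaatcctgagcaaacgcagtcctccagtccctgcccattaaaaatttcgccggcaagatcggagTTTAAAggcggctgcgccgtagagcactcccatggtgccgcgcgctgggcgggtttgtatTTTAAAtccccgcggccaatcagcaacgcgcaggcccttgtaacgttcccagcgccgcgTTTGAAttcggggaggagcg
Cdk1: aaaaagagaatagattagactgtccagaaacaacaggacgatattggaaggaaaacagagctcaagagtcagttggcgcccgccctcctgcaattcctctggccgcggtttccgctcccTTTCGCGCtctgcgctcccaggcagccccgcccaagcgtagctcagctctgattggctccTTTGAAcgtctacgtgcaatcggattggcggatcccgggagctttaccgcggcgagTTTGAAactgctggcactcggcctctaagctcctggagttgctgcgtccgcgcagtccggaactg

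Every array carried 59305 spots, 132 to 243 of them flagged as irregular and 0 saturated, and 49.2% to 79.7% of probes were well above background. A level is the log2 of a processed signal relative to the 75th percentile signal of its array, which was 152 to 366 intensity units, and a difference is the first group's mean level less the second's. A gene is called when its adjusted p from limma over 16343 tested genes is under 0.05. The arrays form 2 sets with no slide, day of scanning or software version in common (ESC, Diff, Mid, Late and XEN in the first; 2iL, EpiSC, ADE and NACL in the other), so levels were compared only within a set. The summed level of 5 extraembryonic endoderm markers was 117 to 153 times the 75th percentile in Diff and 0.232 to 0.255 in ESC, that of 4 stem cell markers was 33.4 to 98.7 in Diff and 274 to 278 in ESC. In these bulk samples, fewer cells in a stage of the cycle and less RNA per cell cannot be told apart.

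Both classes were lowest in Mid cultures of the first array set and in ADE cultures of the other. The class level is the mean of the members' levels after each gene was centred on its mean over all 29 arrays. The replication level was 0.39, 0.32 and 0.38 in ESC, -0.61, -0.14 and -0.11 in Diff, -0.93, -0.98 and -0.62 in Mid, and -0.16, -0.67 and -0.24 in Late. The mitotic level was 0.20, 0.13 and 0.22 in ESC, -0.25, -0.00 and 0.18 in Diff, -0.88, -1.12 and -0.59 in Mid, and -0.29, -0.98 and -0.40 in Late. All 3 ESC arrays lay above all Diff arrays in replication level, whereas 1 Diff array fell within the range of the ESC arrays in mitotic level. All 3 Mid arrays lay below all Diff arrays in both classes, but in Diff the first replicate stood below the other 2 for replication, and Late 2 stood within the Mid range of both classes.

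The distance between the classes was not the same in all groups. The mitotic level less the replication level was 0.265 ± 0.110 in Diff and -0.175 ± 0.018 in ESC (SD, n = 3 each), with every Diff array above every ESC array. It was -0.023 ± 0.102 in Mid, -0.199 ± 0.096 in Late and 0.047 ± 0.093 in XEN (SD, n = 3 each), so that Mid arrays lay below every Diff array. In the other array set it was 0.029 ± 0.072 in ADE (n = 4) and 0.385 ± 0.243 in EpiSC (n = 3), and -0.139 ± 0.029 in NACL (n = 4) and -0.153 ± 0.120 in 2iL (n = 3). EpiSC 3, at 0.66, accounted for much of the spread of EpiSC, whose other arrays were at 0.24 and 0.25, and all of them lay above every ADE, NACL and 2iL array.

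**Figure D1:**
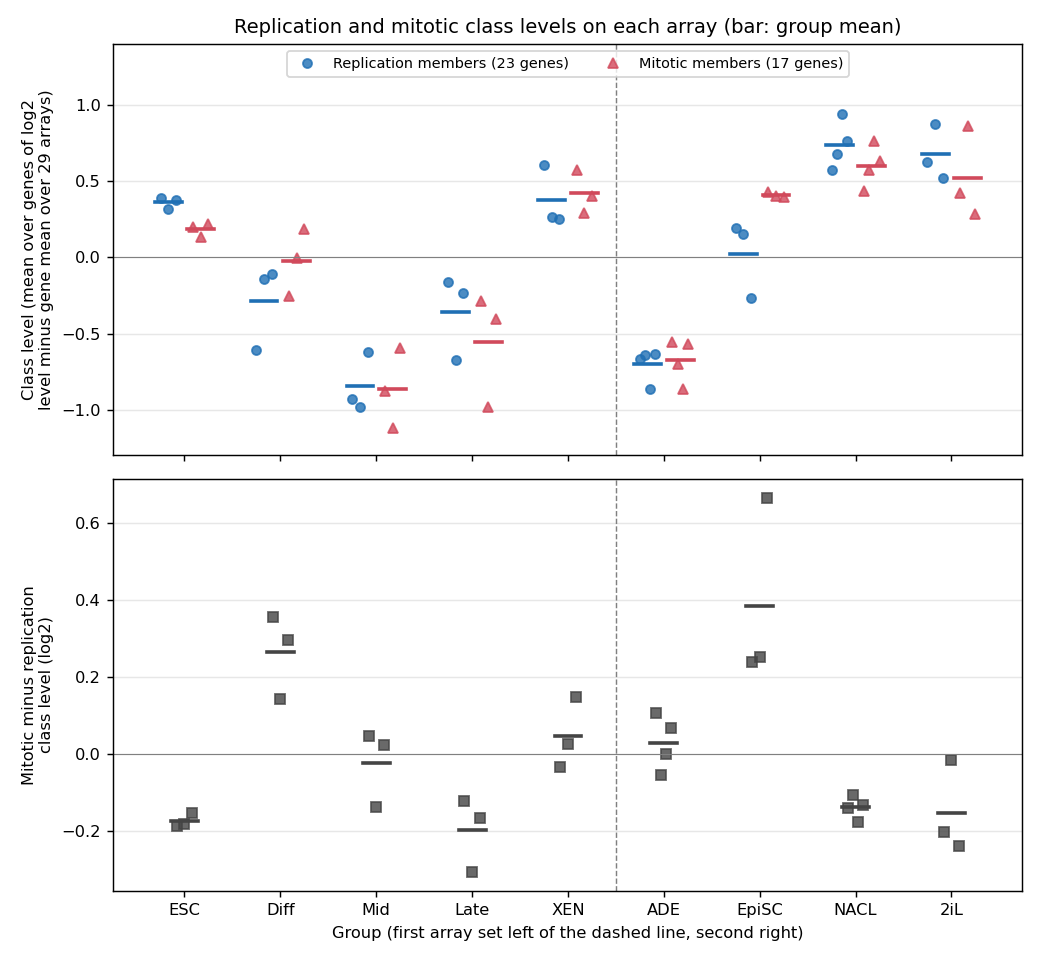
Mean centred level (log2) of the 23 replication and 17 mitotic members on each of the 29 arrays, by group, with group means. ESC arrays sit above Diff arrays for replication, and Mid and ADE have the lowest group means of both classes in their array sets.

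Diff cultures had lower replication gene levels than ESC, while 14 of 17 mitotic members did not pass the test. Of 23 replication members 12 fell and 0 rose, and of 17 mitotic members 3 fell and 0 rose, where 21.0% of all tested genes were called lower. The median difference was -0.62 for replication members and -0.28 for mitotic members (0.14 under median centring), against -0.09 for all tested genes. Among licensing and helicase genes 8 of 12 fell, with a median of -0.91, as did 1 of 6 synthesis and nucleotide supply genes and 3 of 5 genes of S phase entry and its checkpoint.

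Mcm10, which helps the helicase start unwinding and whose promoter window above holds no full E2F match, was at 2.63, 2.99 and 3.34 in Diff, against 4.82, 4.76 and 4.59 in ESC. The groups were far apart, and the difference was -1.74 ± 0.23 (SE, limma adjusted p = 1.5e-06), 3.34-fold lower in Diff. Pole, the catalytic subunit of the leading strand polymerase, was at 2.92, 3.12 and 2.95 in Diff, against 4.53, 4.39 and 4.37 in ESC. It fell by 1.43 ± 0.18 (SE, limma adjusted p = 1.1e-06). The ring subunit Mcm5 was at 3.90, 4.36 and 4.67 in Diff, against 5.78, 5.40 and 5.51 in ESC, with a difference of -1.25 ± 0.23 (SE, limma adjusted p = 0.00011). Diff replicate 1 was the lowest Diff array for Mcm10 and Mcm5, and no array of Diff reached the ESC range of any of these genes. Mcm7, another ring subunit, fell by 1.23 ± 0.23 (SE, limma adjusted p = 0.00015). Mcm2, Mcm3, Mcm6, Gins1 (a helicase cofactor), Cdt1, cyclin E1 (Ccne1), the S phase transcription factor E2f1 and the Cdk-activating phosphatase Cdc25a completed the 12. Mcm4 at -0.40, the sliding clamp Pcna at -0.31 and the ribonucleotide reductase genes Rrm1 at 0.16 and Rrm2 at -0.59 were not called, nor was Cdc6 at 0.46. The other Cdc6 probe was higher in Diff, at 1.09 ± 0.27 (SE, limma unadjusted p = 0.00049).

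The 3 mitotic members that fell were the spindle checkpoint kinase Bub1b, the centromeric histone Cenpa and cyclin B2 (Ccnb2). Bub1b was at 1.01, 1.31 and 2.01 in Diff, against 2.53, 2.47 and 3.00 in ESC, a difference of -1.22 ± 0.29 (SE, limma adjusted p = 0.0015). Cenpa at -0.56 ± 0.20 (SE, limma adjusted p = 0.027) and Ccnb2 at -0.46 ± 0.18 (SE, limma adjusted p = 0.041) were near the threshold, and both lost the call when Diff 1, Diff 3 or any 1 ESC array was left out, with differences of -0.44 to -0.58 for Cenpa and -0.37 to -0.50 for Ccnb2. Cyclin A2 (Ccna2) was at 4.06, 3.87 and 4.09 in Diff, against 3.70, 3.67 and 3.45 in ESC, and the polo kinase Plk1 was at 5.09, 5.06 and 5.37 in Diff, against 4.96 to 5.08 in ESC. The Ccna2 levels did not overlap but missed the threshold (0.40, limma adjusted p = 0.055), and Plk1 overlapped (0.16). The mitotic count was 1 without Diff 1, ESC 1 or ESC 3. The 12 and 3 became 10 and 1 with scan day as a block, and 10 and 1 within the first scan day. Centring arrays on their median moved all genes upward by 0.42 at the median, and 74.1% of calls were then higher, against 51.6% with the 75th percentile. Under it the mitotic median turned positive, at 0.14, the replication median was -0.20, and the counts called lower were 2 and 0. Relative to all genes the replication and mitotic medians were -0.52 and -0.18 in both scalings. That is fixed in advance, since both shift all genes of an array alike. They were -0.71 and -0.38 with quantile normalization, -0.44 and -0.20 with normexp background correction, and -0.49 and -0.40 with the series matrix.

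Among listed genes outside the members, 16 of 31 other replication genes and 12 of 34 other mitotic genes fell, with 0 and 2 higher. Uhrf1, which carries DNA methylation through replication, fell by 2.49 ± 0.27 (SE, limma adjusted p = 1.4e-07). Of 21 regulators of G1 and cell cycle exit, 5 were higher and 4 lower. Cyclin D1 (Ccnd1) was lower, at -3.13 ± 0.70 (SE, limma adjusted p = 0.00089), while cyclin D2 (Ccnd2), above background on 0 of 3 ESC arrays, was at least 43.7-fold higher in Diff (limma adjusted p = 6.2e-06). Bounds of this kind set a group's mean signal against the lowest signals well above background on the other group's arrays.

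Passaging of Diff to Mid came with lower levels in both classes. Of 23 replication members 12 fell, and of 17 mitotic members 15 fell, against 16.0% of all tested genes called lower. The median difference was -0.66 for replication and -0.87 for mitotic members, and -0.03 for all genes. All 4 members of the group of Cdk1 and its cyclins, all 3 kinases and passenger genes, 4 of 5 spindle checkpoint and exit genes, and 4 of 5 motor and chromosome genes fell. This comparison and that of Diff with ESC share the Diff arrays, with opposite sign, so their calls are not independent. In both steps Mcm3, Mcm5, Mcm10, Cdt1 and Gins1 fell, 7 fell in Diff against ESC without being called here (Mcm2, Mcm6, Mcm7, Pole, Ccne1, E2f1 and Cdc25a), and 7 were called here without being called in that comparison (Cdc6, Gins2, the Cdt1 inhibitor Gmnn, Pcna, Rrm1, Rrm2 and Cdk2). Whether any of these genes differed between the steps was not tested. Of the mitotic members 3 fell in both steps and 12 were called in Mid against Diff alone.

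Cyclin B1 (Ccnb1), the main partner of Cdk1 at mitotic entry, was at 3.27, 2.86 and 4.36 in Mid, against 4.41, 5.03 and 4.97 in Diff. The groups did not overlap, although Mid 3 came close to Diff 1, and the difference was -1.30 ± 0.29 (SE, limma adjusted p = 0.0019). Cdk1 was at 1.71, 1.34 and 1.03 in Mid, against 2.24, 2.37 and 2.91 in Diff, and fell by 1.14 ± 0.29 (SE, limma adjusted p = 0.0045). The other probes for Cdk1, neither of them above background on all Mid and Diff arrays, gave 0.33 ± 0.61 and -1.03 ± 0.71 (SE) for this difference. The checkpoint kinase Bub1 was at 1.24, 1.13 and 1.91 in Mid, against 2.12, 2.42 and 2.70 in Diff, and fell by 0.99 ± 0.21 (SE, limma adjusted p = 0.0012). Cdc20, the activator of the ligase that starts anaphase, fell by 0.99 ± 0.23 (SE, limma adjusted p = 0.0027). For each of these 4 genes all Mid arrays lay below all Diff arrays. Mad2l1 was called at -0.91, but its other probes gave -0.21 ± 0.33 and -0.52 ± 0.43 (SE). The checkpoint kinase Ttk at -0.65 and the spindle motor Kif11 at -0.31 were not called.

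Cdc6 was at -0.12, -0.52 and -0.22 in Mid, against 0.65, 0.65 and 1.33 in Diff, and fell by 1.17 ± 0.32 (SE, limma adjusted p = 0.0086). Rrm2, the regulatory subunit of ribonucleotide reductase, was at 4.06, 3.76 and 4.48 in Mid, against 4.21, 5.59 and 5.70 in Diff, and fell by 1.07 ± 0.38 (SE, limma adjusted p = 0.039). Its groups overlapped, through Diff 1. Gins1 fell by 0.93 ± 0.24 (SE, limma adjusted p = 0.0055) and Mcm5 by 0.85 ± 0.23 (SE, limma adjusted p = 0.0077). Single arrays weighed on the replication count, which was 6 without Diff 2, 4 without Diff 3 and 7 without Mid 1 or without Mid 2. Without Diff 3, Cdc6 at -0.94, Mcm5 at -0.67 and Rrm2 at -0.80 were no longer called, and Rrm2 also lost the call without Diff 2 (-0.86), Mid 1 (-1.05) or Mid 2 (-0.90). The counts of 12 and 15 were 10 and 14 with scan day as a block, 3 and 8 on the first scan day alone, and 0 and 6 under median centring, where the medians were -0.69 and -0.90. With the replicate number as a block 0 and 0 members were called. Outside the members, 8 of 31 other replication genes, among them the origin recognition gene Orc1 (-1.27 ± 0.26, SE, limma adjusted p = 0.00071), and 20 of 34 other mitotic genes fell, while 0 of either list rose. The summed level of the 4 stem cell markers was 6.22 to 13.0 in Mid and 33.4 to 98.7 in Diff, and its part in the result was not tested. Of the 21 G1 regulators 4 rose and 1 fell, with Ccnd2 at 3.76 ± 0.83 (SE, limma adjusted p = 0.0015).

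**Figure D2:**
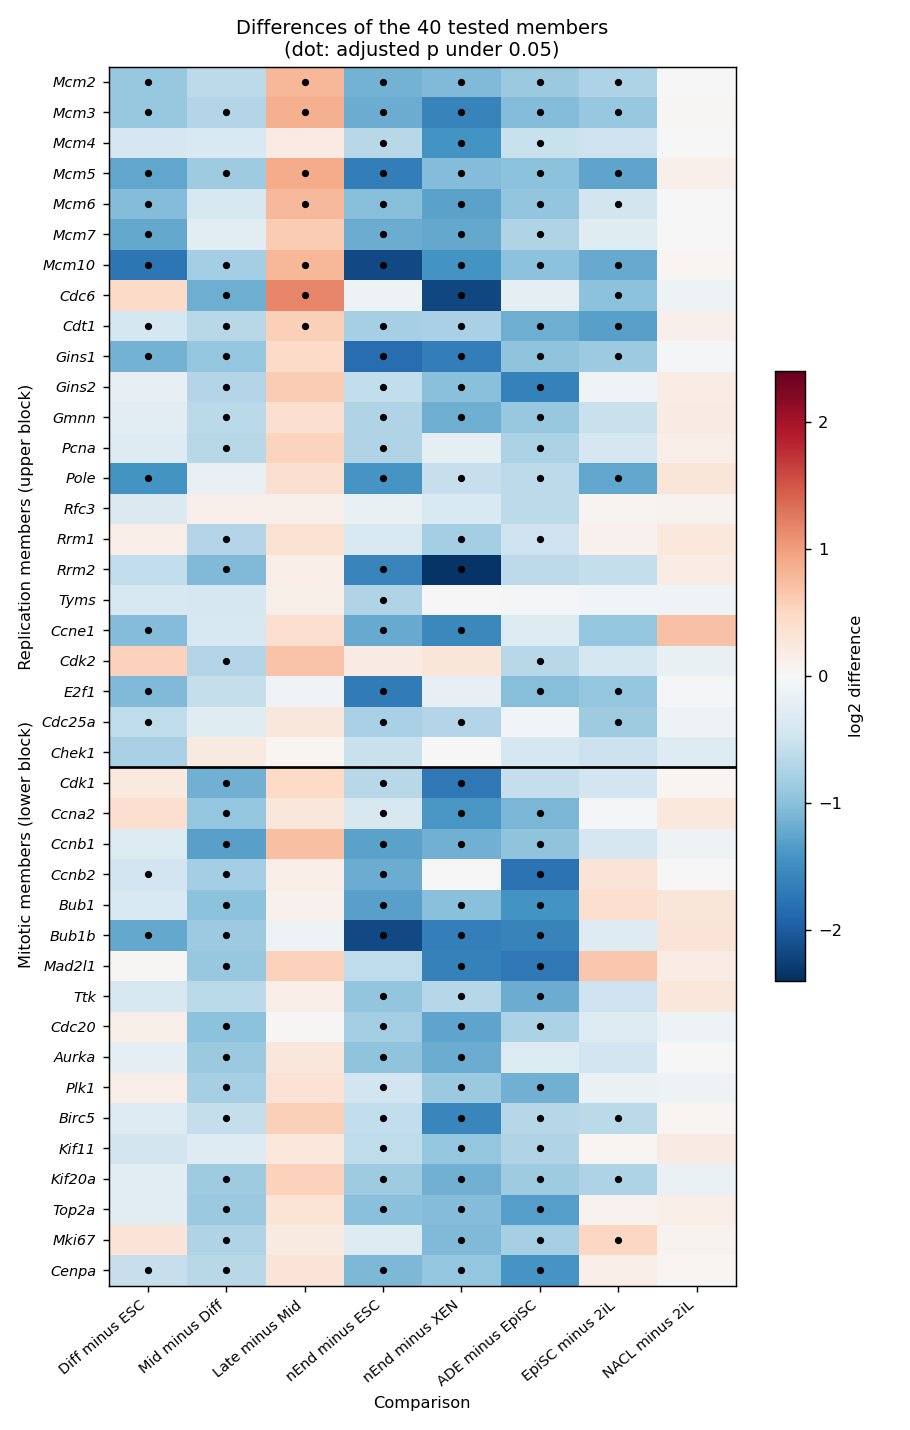
Differences in log2 level (colour) for the 40 tested members, in rows by class and role, in each comparison, in columns, with called cells marked. Licensing and helicase genes carry most marks in Diff against ESC, and mitotic genes are nearly all marked in Mid against Diff and in ADE against EpiSC but few in Diff against ESC.

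Late nEnd cultures had higher levels of licensing genes than Mid cultures in the fit without pairing. Of 23 replication members 7 rose and 0 fell, all of them among the 12 licensing and helicase genes (Mcm2, Mcm3, Mcm5, Mcm6, Mcm10, Cdc6 and Cdt1), against 3.71% of all tested genes called higher. Of 17 mitotic members 0 were called by limma, and 3 mitotic and 12 replication members were higher at an unadjusted p under 0.05, where 12.6% of all tested genes were. The median difference was 0.46 for replication and 0.28 for mitotic members, with 0.11 for all genes. The replicate numbers of Mid and Late cultures were taken as pairs, since same-numbered samples deviated together. Mid 1 and Late 1 also shared a slide, as did Mid 2 and Late 2, so pairing and slide cannot be told apart there. With the replicate number as a block 0 replication and 0 mitotic members were called, as were 0 of 16343 genes, and 10 and 3 members were higher at an unadjusted p under 0.05, with 11.9% of all genes.

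Mcm6 was at 6.34, 5.92 and 6.12 in Late, against 5.21, 5.31 and 5.55 in Mid. Mcm3 was at 4.63, 4.32 and 4.51 in Late, against 3.54, 3.44 and 3.92 in Mid, a difference of 0.85 ± 0.20 (SE, limma adjusted p = 0.0099). Mcm5 was at 4.50, 4.02 and 4.52 in Late, against 3.52, 3.42 and 3.45 in Mid, a difference of 0.89 ± 0.23 (SE, limma adjusted p = 0.023). For all 3 genes every Late array lay above every Mid array. Cdc6 was at 1.43, 0.25 and 0.99 in Late and rose by 1.17 ± 0.32 over Mid (SE, limma adjusted p = 0.029), and Mcm2 rose by 0.80 ± 0.24 (SE, limma adjusted p = 0.045). Late 2 was the lowest Late array for Mcm6, Mcm3, Mcm5 and Cdc6. The count of 7 was 1 without Late 1, 2 without Late 3, 2 without Mid 1 and 1 without Mid 2. Each of Cdc6, Mcm5, Mcm3 and Mcm2 lost its call without Late 1 and without Mid 2, the differences there being 0.90 and 1.06, 0.81 and 0.86, 0.78 and 0.76, and 0.82 and 0.69. Cdc6 and Mcm5 also lost it without Late 3 (1.12 and 0.80) or Mid 1 (1.26 and 0.91), and Mcm2 without Late 2, Late 3 or Mid 1 (0.80, 0.80 and 0.75). The mitotic count was 1 without Late 2 or without Mid 3.

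All Late arrays belong to the first scan day, and Mid 3 to the second. The replication count was 2 with scan day as a block and 3 on the first scan day alone, and the mitotic count 0 in both. Centring on the array median moved all genes by -0.15 at the median, with 23.4% of calls higher, against 53.2%, and 0 replication or mitotic members called higher. Relative to all genes, the replication median was 0.36 and the mitotic median 0.17 in both scalings, which is fixed because both shift all genes of an array alike. With quantile normalization these were 0.35 and 0.17. Outside the members, 5 of 31 other replication genes rose, with the clamp loader Rfc5 at 1.06 ± 0.15 (SE, limma adjusted p = 0.00032) and the thymidine kinase Tk1 at 0.98 ± 0.28 (SE, limma adjusted p = 0.035). Of 34 other mitotic genes 1 rose, and of 21 G1 regulators 1 rose and 1 fell, the retinoblastoma gene Rb1 (-1.11 ± 0.28, SE, limma adjusted p = 0.02).

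Set directly against ESC, nEnd cultures of both passages were lower in both classes. Of 23 replication members 18 fell, and of 17 mitotic members 15 fell, with 26.2% of all tested genes called lower. The medians were -0.80 for replication members, -0.86 for mitotic members and -0.08 for all genes. Of the licensing and helicase genes 11 of 12 fell, the exception being Cdc6 at -0.12 (0.62 on its other probe). The 6 nEnd arrays comprise the Mid and Late arrays and share the ESC arrays with the comparison of Diff. Same-numbered Mid and Late arrays, taken as pairs above, entered this fit as independent arrays. The SE and p-values for nEnd do not allow for that pairing.

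Mcm10 was at 2.24, 2.15 and 2.11 in Mid and 3.21, 2.58 and 3.08 in Late, against the ESC levels of 4.59 to 4.82 given above, and fell by 2.16 ± 0.20 (SE, limma adjusted p = 2.5e-09), 4.48-fold lower. Gins1 was at 1.00, 0.89 and 1.28 in Mid and 1.92, 0.87 and 1.78 in Late, against 3.13, 3.11 and 3.12 in ESC, and fell by 1.83 ± 0.21 (SE, limma adjusted p = 9.2e-08). E2f1 was at 1.19, 1.19 and 2.01 in Mid and 1.50, 1.05 and 1.60 in Late, against 3.12, 3.06 and 3.11 in ESC, and fell by 1.67 ± 0.19 (SE, limma adjusted p = 1.2e-07). No nEnd array came within the ESC range for these genes, and Mid 3 was the highest of the nEnd arrays for E2f1. Mcm5 fell by 1.66 ± 0.20 (SE, limma adjusted p = 2.2e-07).

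Bub1b was at 0.14, 0.16 and 1.42 in Mid and 0.78, 0.00 and 0.56 in Late, against 2.53, 2.47 and 3.00 in ESC, and fell by 2.16 ± 0.25 (SE, limma adjusted p = 1.5e-07). Mid 3 stood above the other Mid arrays here as well. Bub1 fell by 1.30 ± 0.18 (SE, limma adjusted p = 2.3e-06), Ccnb1 by 1.28 ± 0.26 (SE, limma adjusted p = 0.00017) and Ccnb2 by 1.20 ± 0.15 (SE, limma adjusted p = 5.5e-07). Mki67, the common proliferation marker, was not called at -0.30 (limma adjusted p = 0.15), nor was the checkpoint gene Mad2l1 at -0.61 (limma adjusted p = 0.051). The counts were 18 and 13 with scan day as a block and 18 and 11 on the first scan day. Under median centring they were 11 and 5, with all genes moved upward by 0.31 at the median and 66.3% of calls higher, against 51.1%. Of the other listed genes, 22 of 31 replication and 26 of 34 mitotic genes fell and 1 and 0 rose, with Uhrf1 at -2.88 ± 0.24 (SE, limma adjusted p = 5.2e-10). Of 21 G1 regulators 5 rose and 5 fell, and Ccnd2 was at least 440-fold higher in nEnd than in ESC (limma adjusted p = 2.8e-10).

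Set against XEN, nEnd cultures were lower in most members of both classes. In nEnd against XEN, 17 of 23 replication and 16 of 17 mitotic members fell, with 23.7% of all tested genes called lower and medians of -1.05, -1.14 and -0.01. All 12 licensing and helicase genes, all 5 spindle checkpoint and exit genes and all 5 motor and chromosome genes fell. The 7 members not called were Ccnb2 at 0.01, Cdk2 at 0.29, E2f1 at -0.20, Pcna at -0.24, the thymidylate synthase gene Tyms at -0.00, the checkpoint kinase gene Chek1 at -0.01 and the clamp loader Rfc3 at -0.37. Line and medium differ between the groups along with the cell type, and these cannot be told apart. As in the comparison with ESC, paired Mid and Late arrays entered the fit as independent arrays. The 4 stem cell markers summed to 6.22 to 13.0 in Mid and 12.6 to 13.5 in Late, against 0.580 to 0.672 in XEN, and their part in the result was not tested.

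Rrm2 was at 4.06, 3.76 and 4.48 in Mid and 4.72, 3.43 and 4.62 in Late, against 7.23, 6.11 and 6.27 in XEN. Cdc6 was at -0.12, -0.52 and -0.22 in Mid and 1.43, 0.25 and 0.99 in Late, against 2.93, 2.09 and 2.44 in XEN. XEN arrays lay above all nEnd arrays for both genes, Rrm2 with a difference of -2.36 ± 0.33 (SE, limma adjusted p = 4.6e-06), and for Cdc6 they lay above all ESC arrays too, which were at 0.61, 0.32 and 0.33. Cdc6 fell by 2.18 ± 0.28 in nEnd against XEN (SE, limma adjusted p = 1.3e-06), Gins1 by 1.67 ± 0.21 (SE, limma adjusted p = 9.4e-07) and Mcm3 by 1.61 ± 0.17 (SE, limma adjusted p = 7e-08). Cdk1 was at 1.03 to 1.71 in Mid and 2.25, 1.33 and 1.95 in Late, against 3.38, 3.03 and 3.58 in XEN, and fell by 1.72 ± 0.25 (SE, limma adjusted p = 7.1e-06). Its other probes, neither above background on all nEnd arrays, gave -0.22 and -2.45. Bub1b fell by 1.65 ± 0.25 (SE, limma adjusted p = 1.5e-05), Mad2l1 by 1.62 ± 0.26 (SE, limma adjusted p = 2.2e-05) and Birc5, a member of the chromosomal passenger complex, by 1.57 ± 0.18 (SE, limma adjusted p = 1.9e-07). The other Mad2l1 probes gave smaller falls, at -0.78 ± 0.29 and -0.98 ± 0.37 (SE).

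Cyclin B2 was the 1 mitotic member not called. It was at 4.09, 3.87 and 4.21 in Mid and 4.40, 3.97 and 4.27 in Late, against 3.78, 4.18 and 4.42 in XEN, so that XEN overlapped nEnd, whereas Ccnb1 fell by 1.14 ± 0.26 in nEnd (SE, limma adjusted p = 0.0009). E2f1 in XEN, at 1.91, 1.50 and 1.46, likewise lay within the nEnd range and below the ESC arrays. The counts were 17 and 15 with scan day as a block and 16 and 16 on the first scan day alone. Median centring moved all genes by -0.38 at the median, with 24.0% of calls higher, against 41.9%. Of the other listed genes 25 of 31 replication and 33 of 34 mitotic genes fell and 0 rose. The primase subunit Prim2 fell by 4.66 ± 0.18 (SE, limma adjusted p = 2.9e-15). Of 21 G1 regulators 4 rose and 6 fell, and the Cdk inhibitor Cdkn1c, above background on 2 of 3 XEN arrays, was higher in nEnd by 5.24 ± 0.67 (SE, limma adjusted p = 1.4e-06).

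**Figure D3:**
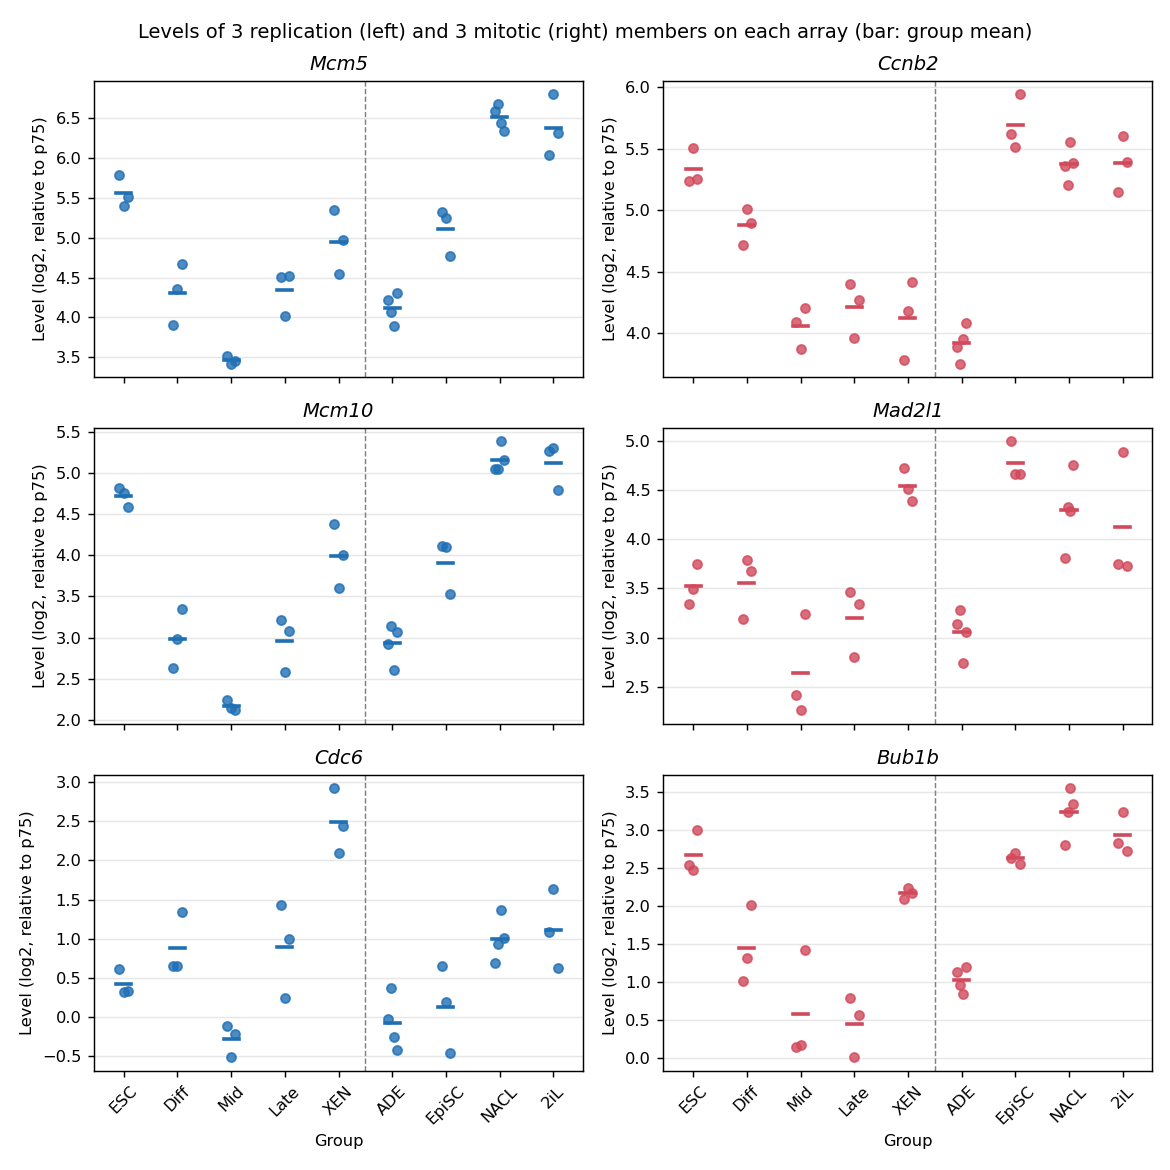
Level (log2 relative to the 75th percentile signal of the array) of single members on every array, by group, with group means. Mcm5 and Mcm10 are lower in Diff than in ESC and lowest in Mid, Cdc6 is highest in XEN, and Ccnb2 does not separate nEnd from XEN.

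In the other route to endoderm, ADE cultures were lower than EpiSC in both classes. Of 23 replication members 16 fell, and of 17 mitotic members 15 fell, with 21.2% of all tested genes called lower. The medians were -0.72 for replication, -1.10 for mitotic members and -0.07 for all genes. Licensing and helicase genes fell in 11 of 12 cases, all but Cdc6, but synthesis and nucleotide genes in 3 of 6 and S phase entry genes in 2 of 5.

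Ccnb2 was at 3.89, 3.75, 3.95 and 4.08 in ADE, against 5.62, 5.52 and 5.94 in EpiSC, and fell by 1.77 ± 0.17 (SE, limma adjusted p = 2e-08), 3.42-fold. Mad2l1 was at 3.14, 3.29, 2.74 and 3.06 in ADE, against 4.99, 4.66 and 4.66 in EpiSC, and fell by 1.72 ± 0.28 (SE, limma adjusted p = 3.1e-05), with -1.04 and -1.18 for its other probes. Bub1b was at 1.13, 0.95, 0.83 and 1.19 in ADE, against 2.63, 2.69 and 2.54 in EpiSC, and fell by 1.60 ± 0.27 (SE, limma adjusted p = 6.4e-05). The gaps between the groups were wide for all 3 genes. Bub1 fell by 1.43 ± 0.20 (SE, limma adjusted p = 4.6e-06). The mitotic members not called were Aurka, a kinase of the spindle poles, at -0.32, and Cdk1 at -0.57.

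Gins2, which with Gins1 forms part of the active helicase, was at 1.36, 1.12, 1.18 and 1.35 in ADE, against 3.01, 2.97 and 2.64 in EpiSC, and fell by 1.62 ± 0.18 (SE, limma adjusted p = 3.5e-07). Cdt1 was at 3.80, 4.08, 3.64 and 3.86 in ADE, against 5.14, 5.04 and 4.89 in EpiSC, and fell by 1.18 ± 0.15 (SE, limma adjusted p = 1.3e-06). Both were well separated. Mcm3 fell by 1.04 ± 0.18 (SE, limma adjusted p = 8e-05) and E2f1 by 1.02 ± 0.21 (SE, limma adjusted p = 0.00044). Cdc6 was at -0.21 on its chosen probe and was not called, while its other probe gave 0.73 ± 0.25 (SE, limma unadjusted p = 0.0076). The mitotic median less the replication median was -0.38, and it was -0.15 without EpiSC 3 and -0.53 without EpiSC 1. The summed level of 4 fibroblast or feeder markers was 3.16 to 15.7 in ADE, with 2 of 4 above background on every array, and 13.8 to 18.3 in EpiSC, with 4 of 4. That of 3 trophoblast markers was 17.3 to 30.3 in ADE and 2.63 to 4.02 in EpiSC, but only 2 of the 3 were called higher in ADE and 1 was called lower. The part of either marker list in the result was not tested. Of the other listed genes 22 of 31 replication genes fell and 1 rose (Orc1 at 1.05 ± 0.24, SE, limma adjusted p = 0.0013, named after its value was seen), and 30 of 34 mitotic genes fell. Of 21 G1 regulators 3 rose and 7 fell, with the Cdk inhibitor Cdkn2b at 3.21 ± 0.39 (SE, limma adjusted p = 8.7e-07) and Cdk6, above background on 0 of 4 ADE arrays, at least 7.66-fold lower in ADE (limma adjusted p = 3.3e-08).

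The difference of Diff from ESC was then set against the difference of ADE from EpiSC, gene by gene, in the same limma fit. This contrast was called in 9 of 17 mitotic members, all with a value above 0, which means a smaller fall or a rise in Diff, and in 4 of 23 replication members, 3 above 0 and 1 below. Of all tested genes 21.0% were called above 0 and 15.7% below. The median was 0.86 for mitotic members, -0.02 for replication members (0.42 under median centring) and 0.02 for all genes. The routes differ in starting cells, days of differentiation (7 to 8 for Diff, 4 for ADE), line spelling and array set. These cannot be told apart, but each difference was taken within its own set.

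Mad2l1 had the largest called contrast, 1.74 ± 0.41 (SE, limma adjusted p = 0.0016). It was at 3.19, 3.79 and 3.68 in Diff, against 3.34, 3.49 and 3.75 in ESC, which overlap, beside the separated ADE and EpiSC levels above. Its other probes gave smaller contrasts, 0.77 ± 0.46 and 1.05 ± 0.58 (SE, limma unadjusted p = 0.10 and 0.086). Ccna2 was at 3.02, 2.64, 2.72 and 3.04 in ADE, against 3.90, 4.02 and 3.95 in EpiSC, while its Diff levels lay above those of ESC, and the contrast was 1.50 ± 0.23 (SE, limma adjusted p = 1.7e-05). Plk1 was at 4.62, 4.50, 4.47 and 4.91 in ADE, against 5.72, 5.70 and 5.91 in EpiSC, and had a contrast of 1.31 ± 0.29 (SE, limma adjusted p = 0.0012). For Ccnb2, lower in both routes, the contrast was 1.32 ± 0.24 (SE, limma adjusted p = 0.00017). Bub1, Cdc20, Cenpa, Mki67 and Top2a, the topoisomerase that untangles sister chromatids, made up the 9, at 0.86 to 1.12.

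The replication members with a called contrast were Gins2 at 1.41 ± 0.27 (SE, limma adjusted p = 0.00025), the S phase kinase Cdk2 at 1.22 ± 0.31 (SE, limma adjusted p = 0.004), Cdt1 at 0.76 ± 0.22 (SE, limma adjusted p = 0.0077) and, in the other direction, Pole at -0.81 ± 0.25 (SE, limma adjusted p = 0.014). Cdk2 was at 2.08, 2.01 and 1.88 in Diff, against 1.81, 1.29 and 1.21 in ESC, and at -0.13, -0.03, -0.35 and -0.32 in ADE, against 0.64, 0.53 and 0.19 in EpiSC. Neither side of Cdk2 overlapped, and its difference was 0.55 on the first route (not called, limma adjusted p = 0.056) and -0.66 on the other. The ring subunits Mcm2 to Mcm7 had contrasts of -0.51 to 0.14, none called. Without EpiSC 3, Pole was no longer called (-0.61), and without Diff 1 the count of replication members above 0 was 5. The mitotic median less the replication median was 0.88, and 0.61 without EpiSC 3, 0.72 without Diff 1 and 1.03 without EpiSC 1. Median centring shifted all genes upward by 0.44 at the median, and took the replication median to 0.42 and the share of calls above 0 to 73.6%, against 57.2%. Normexp background correction put the replication median at 0.13. Of the other listed genes, 15 of 34 mitotic genes were called above 0 and 1 below, of 31 replication genes 2 above and 3 below, and of 21 G1 regulators 6 above and 3 below.

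**Figure D4:**
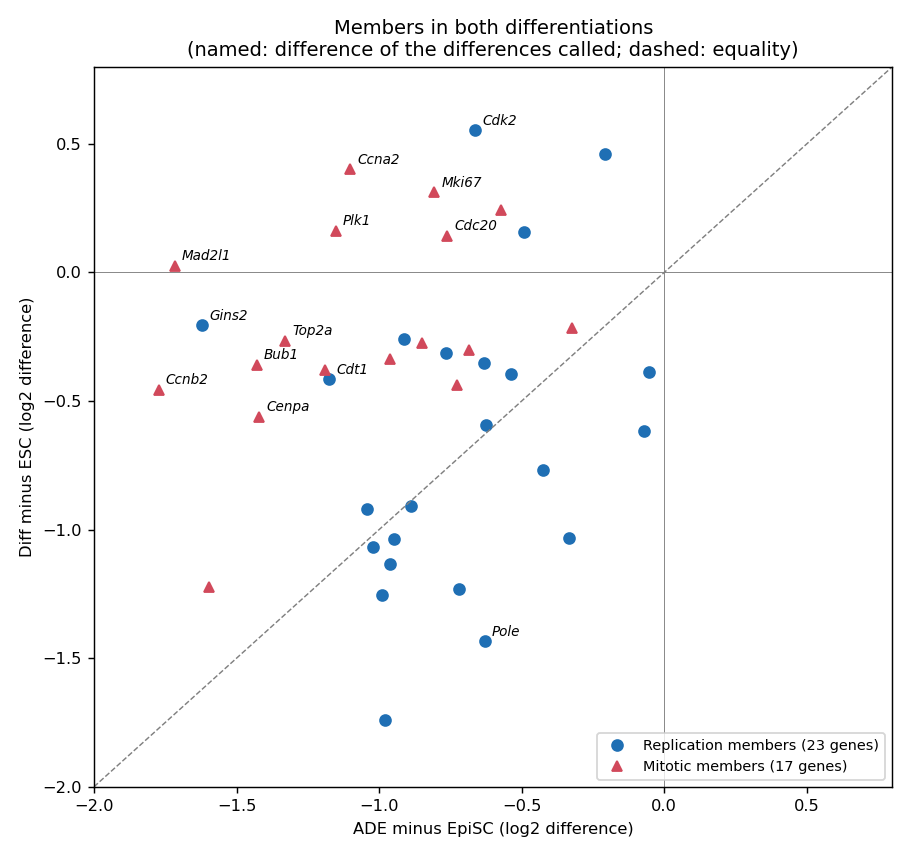
For each tested member, the log2 difference of Diff from ESC against the log2 difference of ADE from EpiSC, by class. All 17 mitotic members lie on the side of the line of equality where Diff minus ESC is the higher, and the ring subunits of the helicase lie below 0 on both axes and near that line.

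The starting cells of the second route also differed by class. In EpiSC against 2iL stem cells 11 of 23 replication members fell and 0 rose, with 21.0% of all tested genes called lower and 21.1% called higher. Of 17 mitotic members 2 fell and 1 rose. The medians were -0.58 for replication, -0.17 for mitotic members and -0.04 for all genes. Of the licensing and helicase genes 8 of 12 fell, with a median of -0.81. EpiSC and 2iL differ in line as well as in cell state, and these cannot be told apart.

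Cdt1 was at 5.14, 5.04 and 4.89 in EpiSC, against 6.21, 6.38 and 6.40 in 2iL, and fell by 1.31 ± 0.16 (SE, limma adjusted p = 4.8e-07). Mcm5 was at 5.32, 5.24 and 4.77 in EpiSC, against 6.04, 6.80 and 6.32 in 2iL, and fell by 1.27 ± 0.23 (SE, limma adjusted p = 9.8e-05). Pole was at 3.17, 3.45 and 2.73 in EpiSC, against 4.62, 4.30 and 4.18 in 2iL, and fell by 1.25 ± 0.18 (SE, limma adjusted p = 7e-06). In all 3 genes the groups were apart, with EpiSC 3 the lowest array. Mcm10 fell by 1.21 ± 0.23 (SE, limma adjusted p = 0.00015). The mitotic motor Kif20a fell by 0.75 ± 0.21 (SE, limma adjusted p = 0.006) and Birc5 by 0.65 ± 0.20 (SE, limma adjusted p = 0.013).

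Mki67 was at 4.99, 5.05 and 4.47 in EpiSC, against 4.19, 4.66 and 4.15 in 2iL, overlapping through EpiSC 3 and 2iL 2, and rose by 0.50 ± 0.20 (SE, limma adjusted p = 0.047). The mitotic members called higher were 1 here, 3 with quantile normalization and 4 with the series matrix. Mki67 lost the call without 2iL 1 (0.43), 2iL 3 (0.41), EpiSC 1 (0.43) or EpiSC 2 (0.40), its other probe gave 0.60, and Kif20a (-0.55) and Birc5 (-0.47) lost theirs without 2iL 2, as did Birc5 without EpiSC 3 (-0.56). The count of mitotic members that fell was 0 without 2iL 2, 4 without 2iL 3 and 1 without EpiSC 3. Median centring, which moved all genes upward by 0.14 at the median, left 4 replication and 0 mitotic members lower. The summed level of the 4 fibroblast or feeder markers was 13.8 to 18.3 in EpiSC and 1.53 to 2.45 in 2iL, where Postn was above background on 0 arrays and the other 3 on all, and its part in the result was not tested. Of the other listed genes 14 of 31 replication genes fell and 2 rose, and 6 of 34 mitotic genes fell and 2 rose. The cell cycle transcription factor Mybl2 fell by 3.08 ± 0.15 (SE, limma adjusted p = 6.8e-13), and of 21 G1 regulators 5 rose and 4 fell, Ccnd2 being higher in EpiSC by 7.14 ± 0.83 (SE, limma adjusted p = 2.8e-07).

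No member was called between NACL and 2iL stem cells. By limma 0 of 23 replication and 0 of 17 mitotic members were called, where 4.31% of all tested genes were called higher and 4.2% lower. At an unadjusted p under 0.05 there were 0 and 0 members, with 1962 of all 16343 tested genes higher and 1483 lower, and with the cell line as a block 1 replication member. The medians were 0.02 for replication and 0.04 for mitotic members (-0.09 and -0.03 with quantile normalization) and 0.06 for all genes. Mcm5 was at 6.59, 6.68, 6.44 and 6.35 in NACL, against 6.04, 6.80 and 6.32 in 2iL. Plk1 was at 5.61, 5.88, 6.11 and 5.73 in NACL, against 5.90, 6.22 and 5.71 in 2iL. The levels of both genes were intermixed. The differences of the members ran between -0.31 ± 0.29 for Chek1 and 0.71 ± 0.36 for Ccne1 (SE). The summed level of the 4 fibroblast or feeder markers was 2.37 to 16.2 in NACL and 1.53 to 2.45 in 2iL, with 0 of 4 called. That of the 5 extraembryonic endoderm markers was 0.70 to 2.49 in NACL and 0.42 to 0.62 in 2iL, with 3 called higher. The part of either marker list in the result was not tested. Of the listed genes outside the members, 1 of 31 replication, 0 of 34 mitotic and 1 of 21 G1 regulator genes were called higher and 1 G1 regulator lower. Rfc4, a clamp loader, at 0.65 ± 0.20 (SE, limma adjusted p = 0.044), and Myc at 2.31 ± 0.66 (SE, limma adjusted p = 0.03) were higher in NACL, and Cdkn2b at -1.58 ± 0.39 (SE, limma adjusted p = 0.012) was lower.

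Members varied unequally over the groups. In the first array set the group means of Cdc6 spanned 2.77, those of Mcm10 2.56, of Rrm2 2.43 and of Bub1b 2.22, whereas Rfc3 spanned 0.54 and Cdk2 0.70. In the other set Cdt1 spanned 2.61 and Mcm5 2.39, and Tyms 0.12. The lowest group mean was that of Mid for 20 of 23 replication and 16 of 17 mitotic members of the first set, the exceptions being Chek1 and Rfc3, lowest in Diff, and E2f1 and Bub1b, lowest in Late. It was that of ADE for all 23 and all 17 in the other. The highest group mean was shared evenly by ESC and XEN among replication members, with 11 each and Cdk2 highest in Diff, while 11 mitotic members were highest in XEN and 6 in ESC. In the second set 14 replication members were highest in NACL and 9 in 2iL, and of the mitotic members 7 were highest in NACL, 5 in 2iL and 5 in EpiSC. The other Cdc6 probe gave 1.09 for Diff against ESC, where the chosen probe gave 0.46, and 0.73 for ADE against EpiSC, as given above.

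The replication members were also read by the letters of their promoter windows. In Diff against ESC the median difference was -0.62 for the 9 tested members with E2F letters and -0.77 for the 9 without. In Late against Mid it was 0.68 for those with the letters and 0.36 for those without. In EpiSC against 2iL it was -0.86 for those with and -0.58 for those without. The order was not the same throughout, with -0.80 for those with and -1.13 for those without in nEnd against ESC. In the same order it was -0.67 and -0.62 in Mid against Diff, and -0.72 and -0.62 in ADE against EpiSC. It was -1.05 and -0.81 in nEnd against XEN, and 0.00 and 0.04 in NACL against 2iL. For the 13 mitotic members with CHR letters the median was -0.30 in Diff against ESC, -0.82 in Mid against Diff and -0.96 in ADE against EpiSC. These medians are descriptions of few genes, and the difference between windows with and without the letters was not tested. The windows of Mcm10 and Chek1, both counted as without E2F letters, end in TTTGGCG and GCGGGAA. Each matches all but the last letter of a searched string and stops at the window edge. The next base was not read, so whether either is a full match is not known, and the sets may depend on where the windows end. Mcm6, with 3 matches of which a pair overlaps, fell by 1.04 in Diff against ESC. Mcm10, with no full match inside its window, fell by 1.74.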

How the data were processed

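Processed signals of 29 single-colour Agilent arrays were read from the deposited scanner files, in which intensity is background-subtracted by the authors' Feature Extraction software, per the file headers (versions 11.0.1.1 and 12.0.1.1; the submitters' processing notes give 9.1). Marks for signal well above background and for irregular or saturated spots were taken from the same deposited files. The authors' deposited series matrix, with column medians of 5.94 to 5.95 read as log2, was used only as an alternative; its log base and background correction are not given in the sources used here.

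Spots of a probe were averaged, signals were divided by the 75th percentile of the array and log2 was taken. Of 55681 probes, 27663 mapped to 1 of 20968 symbols. A gene was read from its brightest probe (5562 of the 20968 symbols had several, among them 8 members) and tested where that probe passed the background mark on every array of 1 or more groups. One limma model (limma 3.58.1, R 4.3.3) held all 9 groups, with 20 residual degrees of freedom, and p-values were adjusted by Benjamini-Hochberg over 16343 genes at 0.05. The code was tested on simulated data. Other tools were data.table (1.17.8), python 3.11.15, numpy 2.4.6, pandas 2.3.3 and matplotlib 3.10.9.

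The genes given in full are, for each comparison, the 4 called members of each class with the largest differences; up to 3 genes outside the members come from lists of other replication, other mitotic and G1 regulator genes, by the same rule. Members and lists were chosen with earlier results of these data known. The replicate numbers of Mid and Late, which come from the sample titles, were taken as pairs, as the deviations of same-numbered samples correlated at 0.218, 0.129 and 0.140. Alternatives were median centring, quantile normalization, normexp background correction with an offset of 50, the series matrix, no filter, the mean of a gene's probes, groups fitted alone, replicate, slide, cell line and scan day as blocks, and leaving out each array. The number of arrays limits the precision.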

Additional observations from a re-analysis of the deposited data

Results flagged for a closer look

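On 2 measures 1 array of ADE stood far from the other 3. Bub1 was at 1.42 in ADE 3, against 1.73 to 1.78 in the other ADE arrays, and the replication class level was -0.86 in ADE 3, against -0.67 to -0.64 in the others. Chance flags about 1 in 20 groups in this way, and all ADE arrays lay below all EpiSC arrays in both measures. All 40 tested members and the class measures were screened in ADE and in NACL, so some flags would come by chance alone.

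The difference of Diff from ESC less the difference of ADE from EpiSC passed the limma test of the difference itself for 13 members. Among mitotic members it was 1.74 for Mad2l1, 1.50 for Ccna2, 1.32 for Ccnb2, 1.31 for Plk1, 1.12 for Mki67, 1.07 for Bub1, 1.06 for Top2a, 0.90 for Cdc20 and 0.86 for Cenpa. Among replication members it was 1.41 for Gins2, 1.22 for Cdk2, 0.76 for Cdt1 and -0.81 for Pole, on the log2 scale.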

How the results depend on the processing

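The counts for nEnd against XEN moved by less than 1.5 times in every alternative run. For NACL against 2iL 0 members were called higher in each, which says nothing about stability. The mitotic median less the replication median changed sign where it was near 0, in nEnd against ESC (-0.06, and 0.01 with normexp and 0.04 without Late 2) and in NACL against 2iL (0.02, and -0.03 with normexp and -0.02 with the replicate block or without NACL 4). Scan day alternatives were chosen after seeing the data. Under median centring the members called lower were 2 replication and 0 mitotic in Diff against ESC, 0 and 6 in Mid against Diff, 11 and 5 in nEnd against ESC, and 4 and 0 in EpiSC against 2iL, and 0 replication members were called higher in Late against Mid. In Diff against ESC the 3 mitotic calls were 1 with normexp, 7 with the series matrix, 1 with groups fitted alone, 1 with scan day as a block and 1 on the first scan day, and the mitotic median less the replication median, 0.34, was 0.09 with the series matrix. In Mid against Diff the counts were 3 and 8 with groups fitted alone and 3 and 8 on the first scan day. In Late against Mid the 7 replication calls were 0 with groups fitted alone, 2 with scan day as a block and 3 on the first scan day. In EpiSC against 2iL the 2 mitotic calls called lower were 1 with quantile normalization, 1 with normexp and 0 with groups fitted alone, and the 1 called higher was 3 with quantile normalization, 4 with the series matrix and 0 with median centring. The ADE against EpiSC difference of medians was -0.23 with normexp. Slide as a random block moved no count by over 1.5 times.

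With the replicate block, members called were 1 mitotic in Diff against ESC, 0 and 0 in Mid against Diff, 0 replication in Late against Mid, and 7 replication and 0 mitotic in EpiSC against 2iL. In no other comparison was every same-numbered correlation over 0.1. The values were 0.021 to 0.087 for Diff with ESC, 0.085 to 0.251 for Late with ESC and -0.124 to 0.315 for ADE with EpiSC. Samples there were not taken as pairs, but correlations over so few arrays cannot show whether same-numbered samples were related. In Mid against Diff 1925 genes in all were called with the block and 4733 without. Of 58 results for single genes, 17 lost the call with the block, 17 with median centring, 13 with groups fitted alone, 5 with normexp, 4 without the filter, 3 with quantile normalization, 1 with the mean of probes and 0 with slide as a random block, as did 1 of 52 with the series matrix.

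Leaving out each array gave 1 to 3 mitotic calls and a difference of medians of 0.29 to 0.53 in Diff against ESC (0.53 without Diff 2), 4 to 15 replication calls in Mid against Diff, and 1 to 8 replication and 0 to 1 mitotic calls in Late against Mid. It gave a difference of medians of -0.53 to -0.15 in ADE against EpiSC, and 0 to 4 mitotic calls with a difference of medians of 0.31 to 0.61 in EpiSC against 2iL (0.61 without EpiSC 1 or EpiSC 2). For the contrast of both routes it gave 3 to 5 replication calls and a difference of medians of 0.61 to 1.03. The causes were not tested. Signal over background limited Ccne2 and Aurkb, and 3 or 4 arrays a group limit the precision of the rest.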
